A study of Homo sapiens with 9 samples.

Results

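The liver X receptors (LXRs) and the cholesterol efflux genes they control were followed in MDA-MB-231 cells treated with the copper chelator TEPA. The group holds 8 named genes, which are the receptors NR1H2 (LXRβ) and NR1H3 (LXRα), the membrane pumps ABCA1 and ABCG1, the ubiquitin ligase gene MYLIP, the phospholipid genes LPCAT3 and PLTP, and the phosphodiesterase gene SMPDL3A. They were taken by name from the 59453 gene names of the count table. ABCG1 was chosen by its own levels, which were seen to fall at 8 h and to return by 24 h in these same libraries, so its values are given as a description without a test.

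MDA-MB-231 is an established human triple-negative breast cancer line, cultured here in DMEM with serum. RNA-Seq was performed on 3 untreated libraries, 3 libraries after 8 h of TEPA and 3 libraries after 24 h of TEPA, and the same untreated libraries served both times. The sample labels give 8 mM TEPA for this line, while the RNA sequencing methods give 4 mM. The text of the study and its reagent list also give different chemical names for TEPA, so the compound is called here by that abbreviation alone. No vehicle or second control is named for the untreated group, and no label says whether the replicates of a group were separate cultures, so p-values measure only the spread between these libraries. Each library held between 34633755 and 49342659 counts. Untreated replicates 1 and 2 differed most (chi-square per degree of freedom of 21.2), followed by 1 and 3 (8.62). Replicates 2 and 3 stood at 6.63, and pairs within the TEPA groups lay between 2.39 and 7.57. Untreated replicate 1 was in both of the largest values. Calls of members and named list genes, and list counts against untreated cells, are given both ways where they changed without untreated replicate 1. The calls of neighbour genes and of PECAM1 were not read without it. List counts were not read without untreated replicate 2. Mitochondrially encoded transcripts took 3.61% to 4.02% of the counts at 8 h, 1.79% to 2.91% in untreated cells and 1.89% to 2.02% at 24 h. With these transcripts left out of the library sizes the counts of called members were the same. Of the 7 members other than ABCG1, 6 were lower at 8 h, and 1 was higher and 1 lower at 24 h. From 8 h to 24 h 5 were higher. With all transcripts kept, 24.5% of all genes tested were called lower at 8 h, and 25.7% higher and 26.8% lower at 24 h. The share called higher from 8 h to 24 h was 26.0%.

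LXRs are nuclear receptors that sit on DNA together with a retinoid X receptor (RXR) and are activated by oxysterols and by the sterol precursor desmosterol. When cellular sterol is plentiful, they switch on genes that load cholesterol and phospholipid onto lipoproteins, limit its uptake and remodel membrane phospholipids. The same receptors are best known from macrophages and liver, and NR1H3 is itself an LXR target in human macrophages.

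Of the 8 genes, 6 had at least 1 promoter window in the RefSeq promoter table (GRCh38.p14), which covers 250 bases before to 50 bases after a start site. ABCG1 and SMPDL3A had none and were not searched. The windows of the 6 genes were searched on both strands for the LXR response element, a direct repeat with a spacer of 4 bases (DR4, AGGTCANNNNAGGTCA), allowing up to 2 mismatches over its 12 fixed letters. One match was found, in the ABCA1 window at chr9:104928209-104928224, beginning 69 bases upstream of the start site on the strand opposite to the gene, with 2 mismatches. Across all windows of the same length, 822 of 35116 (2.34%) held such a match. That share is per window, and NR1H3 and PLTP had more than 1 window each, so more windows than genes were searched. The windows of the other 5 genes came no closer than 3 mismatches, which says only that these letters are not in those windows. The bases upstream of the start are shown for ABCA1, where capitals mark the matched repeat as read on the strand of the gene. Those of MYLIP and LPCAT3, which were lower with ABCA1 at 8 h and have a single window each, are shown too. NR1H2 met the same conditions and is not shown. The bases are written 5′ to 3′ on the strand of the gene, from chr9:104928156-104928305 (minus strand), chr6:16128936-16129085 (plus strand) and chr12:7018477-7018626 (minus strand).
ABCA1: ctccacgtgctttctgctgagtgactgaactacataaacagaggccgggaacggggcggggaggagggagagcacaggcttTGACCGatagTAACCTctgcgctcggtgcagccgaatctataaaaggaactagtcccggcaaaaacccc
MYLIP: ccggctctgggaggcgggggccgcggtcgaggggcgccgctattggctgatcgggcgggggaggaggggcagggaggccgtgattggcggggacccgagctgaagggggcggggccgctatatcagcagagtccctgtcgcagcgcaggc
LPCAT3: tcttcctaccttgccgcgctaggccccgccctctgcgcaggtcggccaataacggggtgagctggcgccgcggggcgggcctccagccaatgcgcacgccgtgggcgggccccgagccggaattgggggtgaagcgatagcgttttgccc

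All 8 genes except PLTP were expressed at a lower level after 8 h of TEPA, and at 24 h most did not pass the test against untreated cells. Of the 7 genes other than ABCG1, 6 were called lower at 8 h and 0 higher, at an edgeR adjusted p under 0.05, where 24.5% of the 16556 genes tested were called lower and 25.2% higher (49.6% in either direction). At 24 h, 1 of the 7 was called higher (MYLIP) and 1 lower (LPCAT3), beside 25.7% and 26.8% of all genes tested (52.5% in either direction). Between 8 h and 24 h, 5 of the 7 rose and 0 fell, where 26.0% of genes rose and 28.8% fell (54.8% in either direction). The 8 h libraries of these 6 genes lay below all untreated libraries without overlap, as those of 28.6% of all genes tested did. Set against the 24 h libraries alone, they lay below without overlap for 5 of the 7 genes and for 29.6% of all genes tested. The share of genes with both separations was not counted. No member was higher at 8 h or lower from 8 h to 24 h at an unadjusted p under 0.05 or with DESeq2 (0 of 7 in each case). In bulk RNA, fewer cells of a type and less RNA per cell cannot be told apart. The median log2 fold change of the 7 genes was -0.54 at 8 h, -0.03 at 24 h and 0.55 from 8 h to 24 h, and over all genes tested it was -0.0013, 0.0023 and -0.016. Because the genes were listed with results of these libraries known, these counts describe the group and are no independent evidence of its direction. The 8 h call of NR1H2 was the least secure, since it was lost without untreated replicate 1 and in 6 other alternatives, which left 5 of the 7 genes lower without that library.

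**Figure D1:**
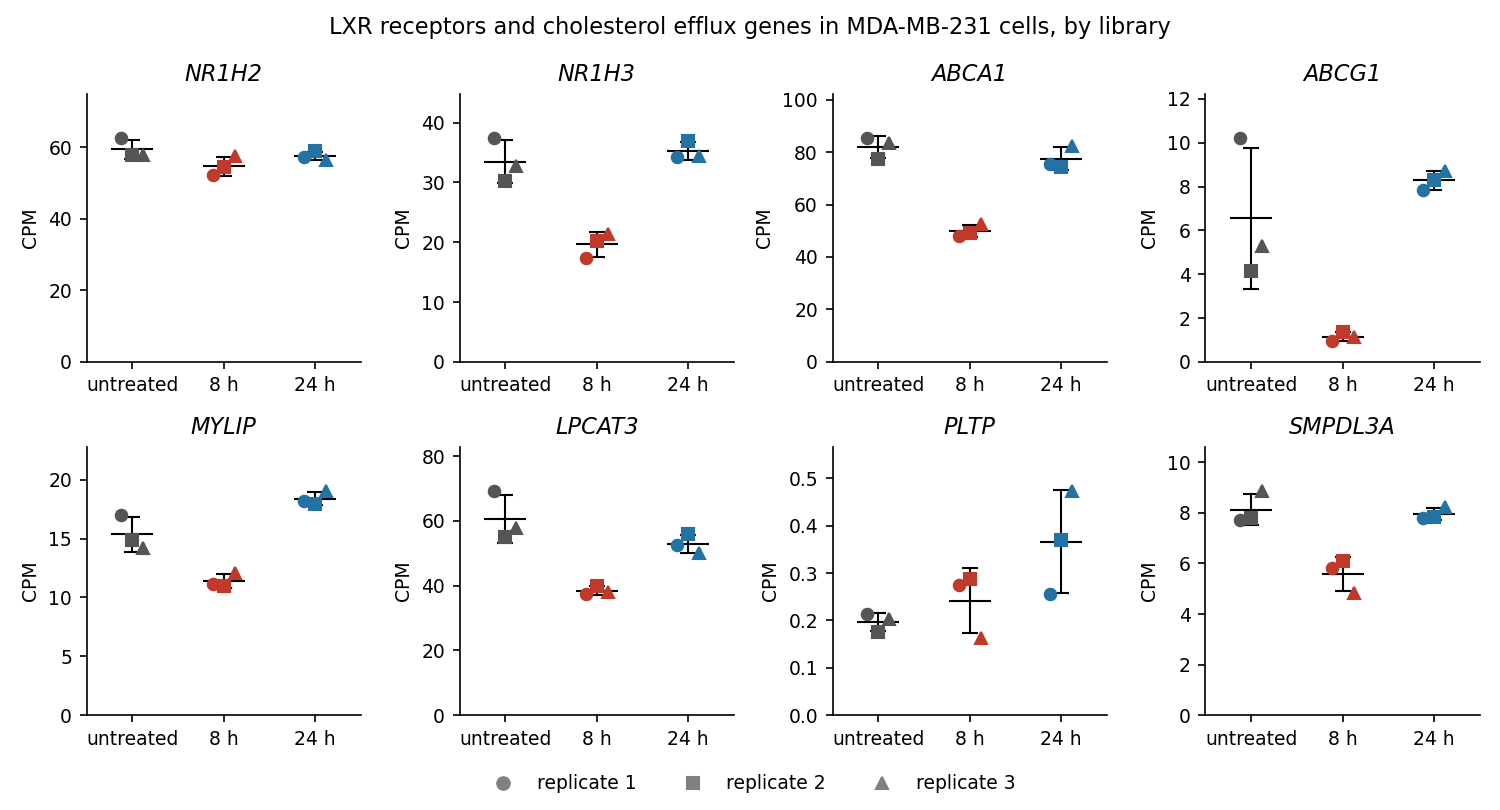
Expression of the 8 genes in each library, in CPM (counts scaled to a common library size, linear axes from 0), for untreated cells and for 8 h and 24 h of TEPA. Points are libraries, with their shape giving the replicate number, and the lines are the mean ± SD of 3 libraries. All 3 libraries at 8 h lie below the untreated libraries for every gene but PLTP, and ABCG1 in untreated replicate 1 lies at 10.2 CPM, well above 4.14 and 5.30 CPM in the other untreated libraries.

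The fitted fall at 8 h was larger for NR1H3 than for NR1H2, a difference that was not tested. Expression is given here as CPM, the count per 1000000 counts of the scaled library size. NR1H3, the more tissue-restricted LXR, was measured at 37.4, 30.3 and 32.8 CPM in the untreated libraries, at 17.4, 20.2 and 21.4 CPM at 8 h and at 34.2, 37.0 and 34.4 CPM at 24 h. The 8 h libraries lay below all others without overlap, while the 24 h and untreated libraries overlapped. NR1H3 fell 1.70-fold at 8 h, or by 0.77 on the log2 scale (standard error 0.0817, edgeR adjusted p = 1.7e-06), and at 24 h it differed from untreated cells by 0.07 (standard error 0.0776, adjusted p = 0.45). From 8 h to 24 h it rose by 0.84 on the log2 scale (adjusted p = 3.9e-07).

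NR1H2, the LXR present in nearly all tissues, was measured at 62.5, 57.9 and 57.9 CPM in untreated cells, at 52.1, 54.5 and 57.5 CPM at 8 h and at 57.2, 58.9 and 56.5 CPM at 24 h. All 8 h libraries were below all untreated ones, but only just, with 57.5 CPM as the highest at 8 h and 57.9 CPM as the lowest untreated value. On the log2 scale NR1H2 differed from untreated cells by -0.12 at 8 h (standard error 0.0474, edgeR adjusted p = 0.047) and by -0.05 at 24 h (adjusted p = 0.44), and without untreated replicate 1 the 8 h value was -0.08 (adjusted p = 0.16). From 8 h to 24 h the difference was 0.07 (adjusted p = 0.20).

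The balance of the LXRs was compared per length of exon. Lengths were taken over the merged exons of all annotated transcripts (5341 bases in NR1H2 and 4534 in NR1H3). Which transcripts the cells use was not read, so multiples between genes depend on these lengths. NR1H2 exceeded NR1H3 1.51 ± 0.102 times in untreated cells, 2.37 ± 0.152 times at 8 h and 1.39 ± 0.0341 times at 24 h (SD, n = 3). The ratio ran from 2.28 to 2.55 at 8 h and from 1.35 to 1.62 in the other 6 libraries, so that every 8 h library stood above the rest. This ratio was not tested.

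ABCA1, the pump that hands cholesterol and phospholipid to lipid-poor apolipoprotein A-I, was measured at 85.3, 77.2 and 83.5 CPM in untreated cells, at 47.9, 49.3 and 52.7 CPM at 8 h and at 75.6, 74.4 and 82.4 CPM at 24 h. The untreated and 24 h libraries overlapped, and each of the 8 h libraries was far below them. ABCA1 fell 1.64-fold at 8 h (log2 fold change -0.72, standard error 0.0530, edgeR adjusted p = 4.8e-08), the smallest adjusted p of the group in that comparison. At 24 h the log2 fold change against untreated cells was -0.08 (adjusted p = 0.20), and from 8 h to 24 h ABCA1 rose by 0.63 (adjusted p = 8.5e-08).

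ABCG1, which passes cholesterol on to mature high-density lipoprotein, is described without a test. It was measured at 10.2, 4.14 and 5.30 CPM in untreated cells, at 0.974, 1.36 and 1.12 CPM at 8 h and at 7.84, 8.31 and 8.70 CPM at 24 h. These values rest on 383, 189 and 209 counts in untreated cells, 39, 52 and 41 at 8 h and 400, 359 and 313 at 24 h, so that counting error alone is 13.9% to 16.0% of each 8 h value. No 8 h library reached the others, and the 24 h libraries fell within the untreated range, which untreated replicate 1 stretched.

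The fitted log2 fold change of ABCG1 was -2.49 at 8 h, or 5.63-fold lower, 0.35 at 24 h, and 2.85 from 8 h to 24 h, or 7.19-fold higher. Among all genes tested the 8 h value lay at the 0.139 percentile. Without untreated replicate 1 the log2 fold changes were -2.03 at 8 h and 0.81 at 24 h, and the 24 h mean then stood at 176% of the untreated mean in place of 127%. The position of the 24 h level relative to untreated cells therefore turned on 1 library. The coefficient of variation was 49.2% in untreated cells, 16.9% at 8 h and 5.18% at 24 h.

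Per length of merged exons, ABCA1 exceeded ABCG1 7.70 ± 2.87 times in untreated cells, 23.9 ± 3.75 times at 8 h and 5.05 ± 0.194 times at 24 h (SD, n = 3). The size of these multiples depends on those lengths as well. Values at 8 h, from 19.6 to 26.5, lay above those of all other libraries, from 4.51 to 10.1. Since ABCG1 was chosen for its fall, this ratio is given as a description.

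**Figure D2:**
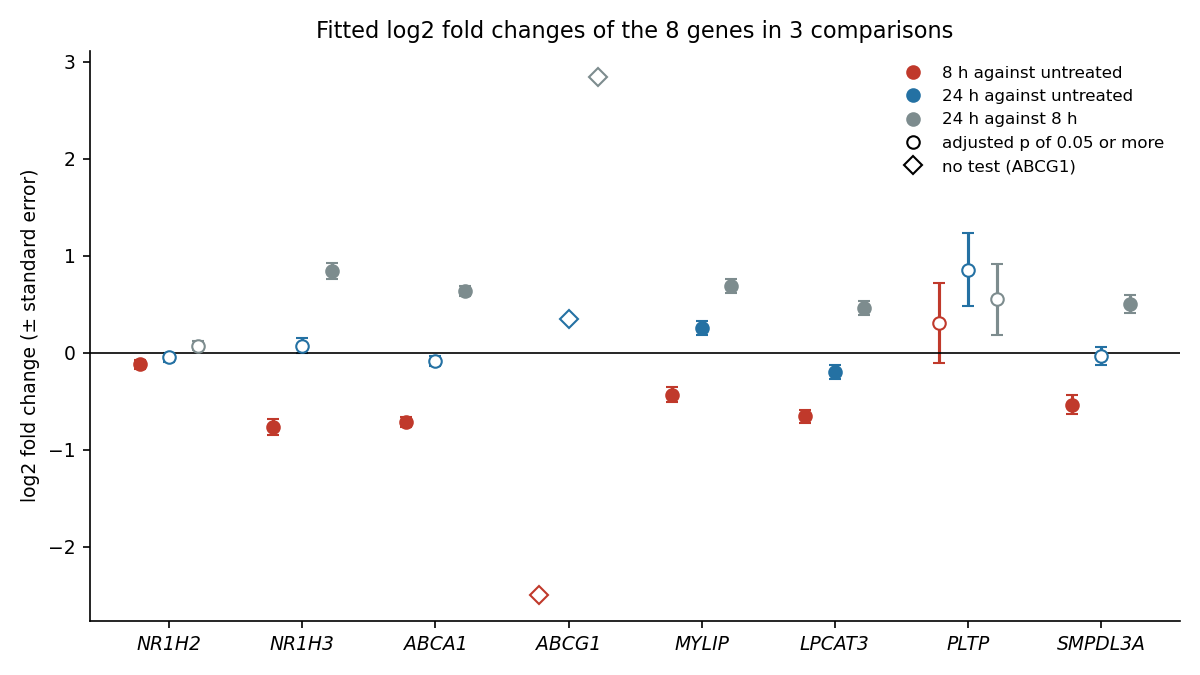
Fitted log2 fold changes of the 8 genes (vertical axis) for 8 h against untreated, 24 h against untreated and 24 h against 8 h, with bars for ± 1 standard error. Filled points have an edgeR adjusted p under 0.05, and the diamonds of ABCG1 carry no test. NR1H3, ABCA1, MYLIP, LPCAT3 and SMPDL3A sit below 0 at 8 h and above 0 from 8 h to 24 h.

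MYLIP encodes IDOL, which marks lipoprotein receptors for degradation and so limits cholesterol uptake. It was measured at 17.0, 14.9 and 14.2 CPM in untreated cells, at 11.1, 11.0 and 12.0 CPM at 8 h and at 18.2, 17.9 and 19.0 CPM at 24 h. No library of one group overlapped with those of another, in the order 8 h, untreated, 24 h. MYLIP fell at 8 h (log2 fold change -0.43, standard error 0.0755, edgeR adjusted p = 2.1e-04) and was the only one of the 7 genes called higher at 24 h (0.26, standard error 0.0718, adjusted p = 0.0065). Its rise from 8 h to 24 h was 0.69 (adjusted p = 1.2e-06).

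LPCAT3, an enzyme of the endoplasmic reticulum that puts polyunsaturated chains into phospholipids, was measured at 69.1, 55.0 and 57.9 CPM in untreated cells, at 37.4, 39.9 and 38.1 CPM at 8 h and at 52.4, 56.0 and 50.2 CPM at 24 h. Groups were separate at 8 h but not at 24 h, where the highest library (56.0 CPM) passed the lowest untreated one (55.0 CPM). LPCAT3 fell 1.58-fold at 8 h (log2 fold change -0.66, standard error 0.0706, edgeR adjusted p = 1.9e-06) and rose by 0.46 from 8 h to 24 h (adjusted p = 4.9e-05). It was the only one of the 7 genes called lower at 24 h (-0.20, adjusted p = 0.025), and that call was lost without untreated replicate 1 (-0.10, adjusted p = 0.13), without TEPA 24 h replicate 1 (-0.19, adjusted p = 0.072) and without TEPA 24 h replicate 3 (-0.16, adjusted p = 0.093).

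SMPDL3A, a secreted enzyme related to acid sphingomyelinase, was measured at 7.73, 7.81 and 8.85 CPM in untreated cells, at 5.82, 6.11 and 4.84 CPM at 8 h and at 7.78, 7.83 and 8.23 CPM at 24 h. The 24 h libraries all lay inside the untreated range, and the 8 h libraries were all below it. SMPDL3A fell at 8 h (log2 fold change -0.54, standard error 0.0976, edgeR adjusted p = 2.9e-04), was -0.03 at 24 h (adjusted p = 0.78) and rose by 0.50 from 8 h to 24 h (adjusted p = 4.0e-04).

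PLTP, which moves phospholipid between lipoproteins, was barely detected, with 8 counts in each untreated library, 11, 11 and 6 at 8 h and 13, 16 and 17 at 24 h. In CPM it was 0.213, 0.175 and 0.203 in untreated cells, 0.275, 0.287 and 0.163 at 8 h and 0.255, 0.370 and 0.472 at 24 h. PLTP passed the filter on low counts through the 24 h libraries alone, of which 3 of 3 reached the limit of 0.250 CPM, against 0 of 3 untreated and 2 of 3 at 8 h. The 24 h libraries lay above the untreated ones without overlap, as 28.4% of all genes tested did. No difference was called for PLTP: its fitted values were 0.31 on the log2 scale at 8 h (standard error 0.409, edgeR adjusted p = 0.56), 0.86 at 24 h (standard error 0.374, adjusted p = 0.067) and 0.55 from 8 h to 24 h (adjusted p = 0.22). Since the filter let PLTP in through the group in which it was highest, its 24 h values are a description and support no direction.

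**Figure D3:**
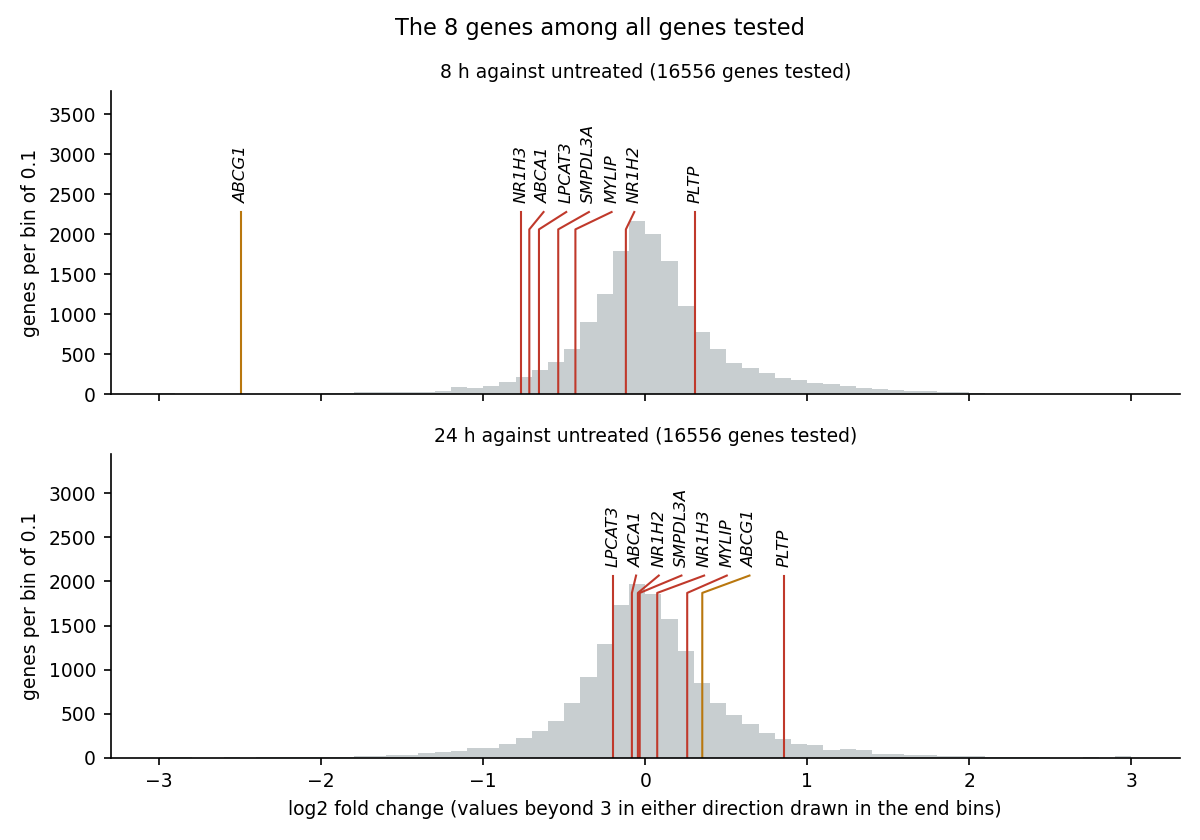
Histograms of the log2 fold changes of all 16556 genes tested (horizontal axis, in bins of 0.1, with values beyond 3 in the end bins), with the 8 genes marked by lines. At 8 h ABCG1 stands at -2.49 and 5 others between -0.77 and -0.43, while at 24 h all 8 lie between -0.20 and 0.86.

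The 5 called genes that fell most at 8 h covered a narrow span, from -0.77 (NR1H3) to -0.43 (MYLIP), which placed them between the 4.57 and 11.9 percentiles of all genes tested. The lowest 5% of genes began at -0.74. A fall at 8 h followed by a rise from 8 h to 24 h, each with an adjusted p under 0.05, was seen in NR1H3, ABCA1, MYLIP, LPCAT3 and SMPDL3A, and in 2015 of all genes tested (12.2%). The comparisons share the 8 h libraries, so that a low value in those libraries enters both.

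Levels were ordered per kilobase of exon (CPM per kb), using the merged exons of each gene in GENCODE v44. Merged exons can be longer than the transcripts in use, which were not read, so the order depends on these lengths. In untreated cells the order was LPCAT3 (12.9 ± 1.58), NR1H2 (11.1 ± 0.50), NR1H3 (7.39 ± 0.792), ABCA1 (7.23 ± 0.375), MYLIP (5.00 ± 0.478), SMPDL3A (3.46 ± 0.265), ABCG1 (1.07 ± 0.526) and PLTP (0.0775 ± 0.00776) (SD, n = 3). The ranges of mean ± SD of LPCAT3 and NR1H2 overlapped. Their libraries did not, but only just (lowest LPCAT3 11.73, highest NR1H2 11.70). The libraries of NR1H3 and ABCA1 overlapped. At 8 h NR1H2 came first at 10.2 ± 0.501 CPM per kb and LPCAT3 second at 8.20 ± 0.276. ABCA1 (4.40 ± 0.217), NR1H3 (4.34 ± 0.458) and MYLIP (3.71 ± 0.187) followed, and among them the libraries of ABCA1 and NR1H3 overlapped and so did those of NR1H3 and MYLIP. At 24 h the order was the same as in untreated cells, with LPCAT3 at 11.3 ± 0.620 and NR1H2 at 10.8 ± 0.231 overlapping. ABCG1 ranked seventh in each group, and at 8 h, at 0.188 ± 0.0318 CPM per kb, it still exceeded PLTP at 0.0952 ± 0.0269 without overlap.

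**Figure D4:**
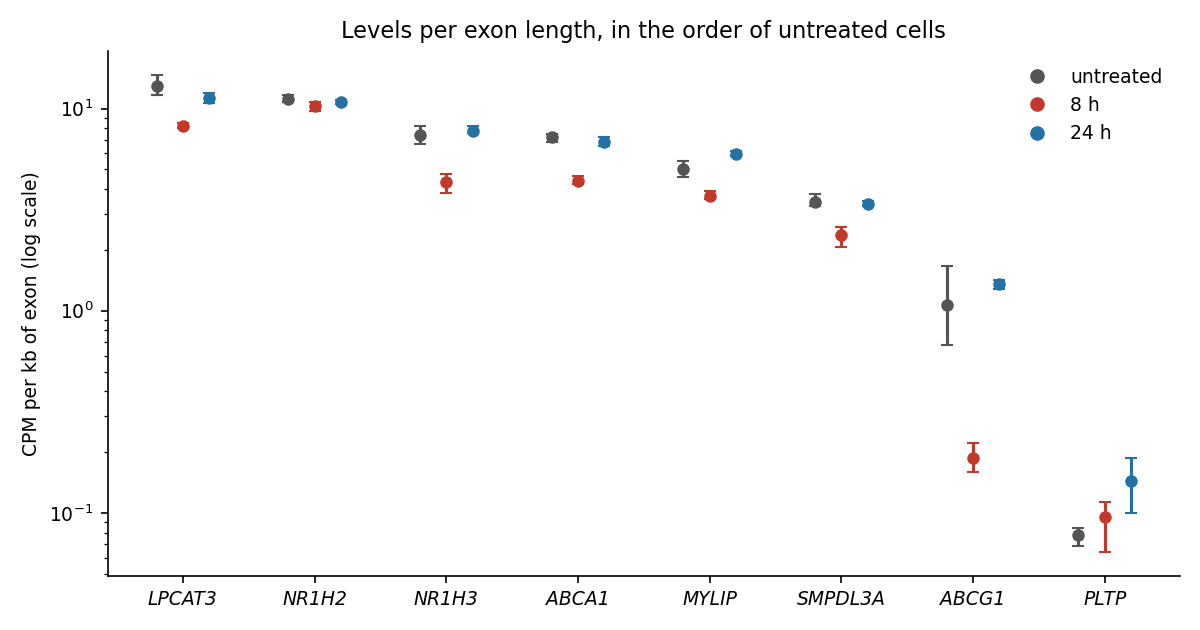
Mean level of each gene in CPM per kb of exon (log axis), in the order of untreated cells, for the 3 groups. Bars run from the lowest to the highest of 3 libraries. The 8 h points lie below the untreated points for 7 genes, by the widest margin for ABCG1 (0.188 against 1.07 CPM per kb).

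On hg38 the genes lie apart from each other, at chr9:104781006-104928155 (ABCA1, minus strand), chr21:42199689-42297244 (ABCG1, plus), chr12:6976185-7018477 (LPCAT3, minus), chr6:16129086-16148248 (MYLIP, plus), chr19:50329653-50383388 (NR1H2, plus), chr11:47248300-47269033 (NR1H3, plus), chr20:45898621-45912155 (PLTP, minus) and chr6:122789049-122809720 (SMPDL3A, plus). All are protein-coding, and the counts were taken over their exons. None shares exon bases with another gene on the same strand. LPCAT3, NR1H2, NR1H3 and PLTP share exon bases with EMG1, NAPSA, ACP2 and CTSA on the opposite strand, and the authors counted with strand used.

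The nearest tested protein-coding gene on each side was also read, among genes that do not overlap the member. Genes that overlap a member, such as EMG1, NAPSA, ACP2 and CTSA, were not read. Of these 16 neighbours, 6 were called lower at 8 h, 3 higher and 7 neither. These calls were not read again without untreated replicate 1. Of all genes tested, 24.5% were called lower and 25.2% higher at 8 h. MADD, 0.128 kb from NR1H3, was higher at 8 h (log2 fold change 0.13, edgeR adjusted p = 0.018), as was DDB2 at 9.08 kb on the other side (0.23, adjusted p = 0.0021). POLD1, 0.816 kb from NR1H2, was not called (log2 fold change 0.12, adjusted p = 0.077). PHB2, 5.41 kb from LPCAT3, rose at 8 h (0.29, adjusted p = 3.2e-05). The tested neighbours at 3.24 kb from ABCA1 (NIPSNAP3B, 0.24, adjusted p = 0.63) and 14.4 kb from ABCG1 (TFF3, -0.30, adjusted p = 0.27) were not called. Farther away, C1R at 61.7 kb from LPCAT3 (-0.82, adjusted p = 2.1e-04), PKIB at 62.7 kb from SMPDL3A (-0.95, adjusted p = 3.3e-04) and GMPR at 90.3 kb from MYLIP (-0.49, adjusted p = 2.5e-04) fell at 8 h. So did ZNF473 beside NR1H2 (-0.24, adjusted p = 0.0087), SLC44A1 beside ABCA1 (-0.29, adjusted p = 2.7e-04) and DTNBP1 beside MYLIP (-0.30, adjusted p = 0.0016), at 276, 316 and 466 kb. SLC44A1 then rose by 0.77 from 8 h to 24 h (adjusted p = 7.4e-09).

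The genes around the receptors were described by 8 lists with 81 genes in all. Beside their counts, 24.5% of all genes tested were called lower and 25.2% higher at 8 h. At 24 h these shares were 26.8% and 25.7%. RXRs are the obligate partners of LXR on DNA. RXRA rose at 8 h (log2 fold change 0.17, edgeR adjusted p = 0.0012) and further at 24 h (0.61, adjusted p = 3.1e-09), from 149 ± 3.47 to 168 ± 5.43 and 227 ± 5.02 CPM (SD, n = 3). RXRB fell at both times (-0.41 and -0.31, adjusted p = 4.5e-06 and 4.1e-05). RXRG had at most 3 counts in every library.

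Oxysterols and desmosterol are the natural ligands of LXR. Of the 9 listed genes that make or remove them, 5 were tested, and 2 were lower and 1 higher at 8 h (median -0.32), against 3 higher and 2 not called at 24 h (median 0.28). Both genes called lower at 8 h lost that call without untreated replicate 1. CYP27A1, a mitochondrial sterol hydroxylase, was lower at 8 h (-0.32, adjusted p = 0.020, but -0.16, adjusted p = 0.10, once untreated replicate 1 was left out) and higher at 24 h (0.37, adjusted p = 0.0049). CYP7A1 and CYP7B1, which act in the routes to bile acids, had at most 3 counts in every library.

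Among 11 corepressors and coactivators of LXR, 5 rose and 2 fell at 8 h (median 0.14), and 4 rose and 3 fell at 24 h (median -0.03). Without untreated replicate 1, 4 rose at 8 h and 4 fell at 24 h. The coactivator gene PPARGC1A was measured at 3.89 ± 0.790, 2.26 ± 0.349 and 3.68 ± 0.233 CPM (SD, n = 3). It fell at 8 h (log2 fold change -0.78, edgeR adjusted p = 9.0e-04) and was not called at 24 h (-0.07, adjusted p = 0.70).

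Other LXR targets were divided. Of 18 listed, 11 were tested, with 4 lower and 2 higher at 8 h (median -0.18) and 4 lower and 3 higher at 24 h (median -0.22). Without untreated replicate 1, 3 were higher at 8 h. ABCG5, ABCG8, LPL, CETP and NR0B2, which are known mainly from liver, gut and fat, had at most 3 counts in every library. SREBF1, which encodes the lipogenic factor SREBP1, fell from 489 ± 73.9 to 198 ± 20.1 CPM at 8 h (log2 fold change -1.30, edgeR adjusted p = 2.1e-08) and was at 440 ± 27.3 CPM at 24 h (-0.15, adjusted p = 0.16). SCD, the desaturase that makes monounsaturated fatty acids, was lower at both times, at 425 ± 17.2 and 927 ± 58.5 CPM against 1458 ± 349 in untreated cells (-1.78 and -0.65, adjusted p = 1.1e-08 and 1.4e-04).

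VLDLR and LRP8, lipoprotein receptors that IDOL marks for degradation, were both called lower at both times, beside a MYLIP level that fell first and then passed that of untreated cells. VLDLR had log2 fold changes of -0.54 and -0.63 (edgeR adjusted p = 0.0011 and 2.6e-04).

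Genes of cholesterol transport, storage and acceptors went both ways, with 9 of 17 tested lower and 6 higher at 8 h, and 4 lower and 5 higher at 24 h. Leaving out untreated replicate 1 gave 7 lower at 8 h, and 3 lower and 6 higher at 24 h. STARD4, a carrier that moves sterol between membranes, fell from 62.5 ± 4.32 to 32.0 ± 2.81 CPM at 8 h (log2 fold change -0.96, edgeR adjusted p = 9.6e-08) and stood at 62.9 ± 6.62 CPM at 24 h (0.01, adjusted p = 0.94). LCAT, which esterifies cholesterol on high-density lipoprotein, rose at both times (1.26 and 0.52, adjusted p = 1.2e-07 and 7.0e-04). Of 7 tested enzymes related to LPCAT3 or SMPDL3A by family or by reaction, 2 were higher and 2 lower at 8 h. At 24 h 2 were higher and 3 lower (2 lower without untreated replicate 1). LPCAT1, which acylates lysophosphatidylcholine, was at -0.01 on the log2 scale after 8 h (adjusted p = 0.81) and -1.07 after 24 h (adjusted p = 1.9e-11). MBOAT1, a member of the same enzyme family as LPCAT3, rose by 0.28 after 8 h (adjusted p = 0.018) and fell by 0.56 after 24 h (adjusted p = 1.5e-04).

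SREBP2 targets of sterol synthesis are switched on when sterol is scarce, opposite to LXR targets. Of 11 tested, 10 were called lower at 8 h (median -0.65) and 8 at 24 h (median -0.39), and the others were not called. Of all genes tested, 24.5% were called lower at 8 h and 26.8% at 24 h. From 8 h to 24 h, 7 of the 11 rose and 2 fell, where 26.0% of all genes tested rose and 28.8% fell. INSIG1, which holds the SREBPs in the endoplasmic reticulum, fell from 120 ± 25.4 to 24.4 ± 1.04 CPM at 8 h and stood at 57.9 ± 2.36 CPM at 24 h (log2 fold changes -2.29 and -1.05, edgeR adjusted p = 8.4e-10 and 5.0e-07). At 24 h the count of genes called lower was thus 8 of 11 here and 1 of 7 among the LXR genes, and the difference between the groups was not tested. Leaving out untreated replicate 1 gave 6 of 11 here, and the 1 call among the LXR genes, that of LPCAT3, was lost.

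**Figure D5:**
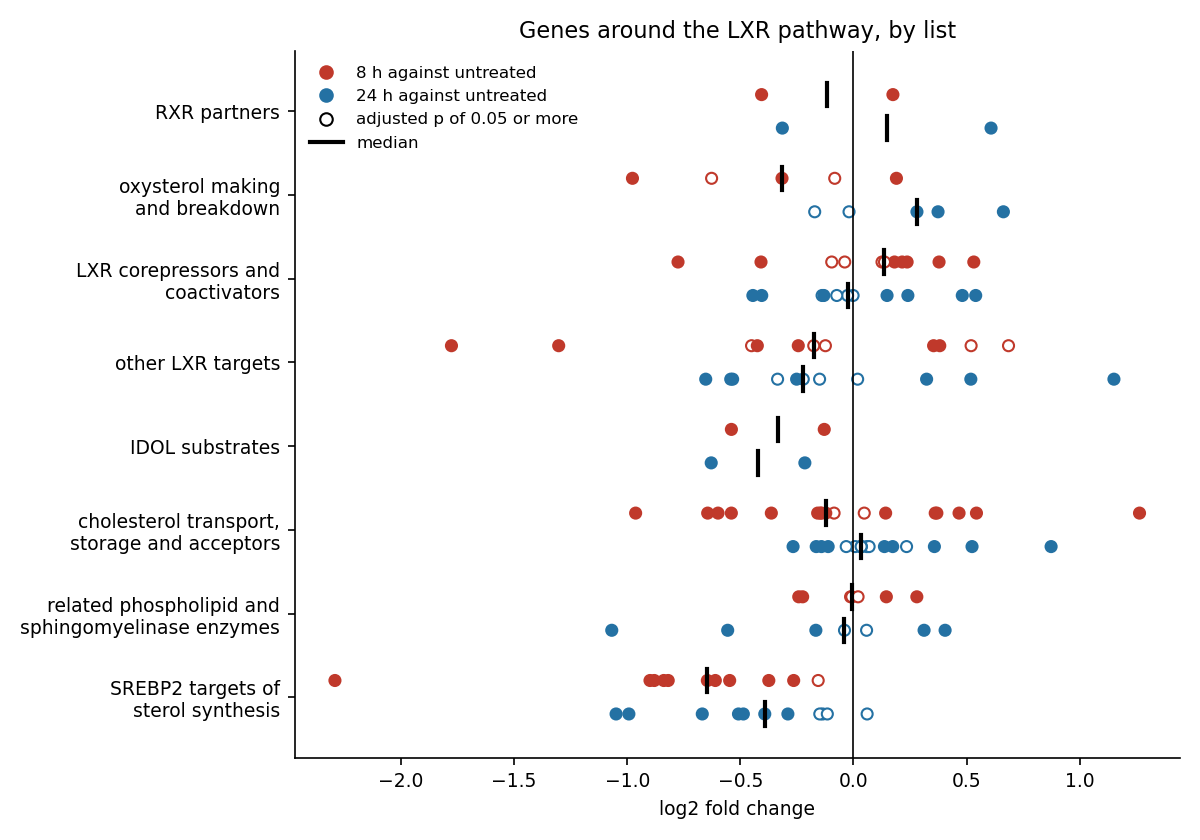
Log2 fold changes (horizontal axis) of the tested genes of each of the 8 lists, for 8 h against untreated and 24 h against untreated. Points are genes, filled where the edgeR adjusted p is under 0.05, and black bars are the median of each list. SREBP2 targets lie to the left of 0 at 8 h with a median of -0.65, and corepressors and coactivators lie on both sides.

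The line was checked against marker genes. VIM, CD44, AXL, MSN and CAV1, mesenchymal genes of this line, were high in every library (VIM at 3240 to 4433 CPM), and of 5 luminal breast genes the hormone receptor genes ESR1 and PGR had at most 9 and 0 counts and EPCAM at most 71. The other luminal genes were detected, GATA3 at 10.2 to 14.8 CPM and the keratin gene KRT18 at 246 to 308 CPM. Since LXR targets are prominent in macrophages, a list of 6 macrophage genes was also read. Its summed level was 15.5 to 19.4 CPM in untreated cells, 7.80 to 8.67 CPM at 8 h and 20.5 to 21.9 CPM at 24 h, lowest at 8 h as for the efflux genes but above the untreated range at 24 h, and came nearly all from CSF1R and CD14. CD14, a receptor for bacterial lipid, was at 3.85 ± 1.11, 0.762 ± 0.162 and 4.05 ± 0.625 CPM (log2 fold change at 8 h -2.32, edgeR adjusted p = 9.8e-07), and CSF1R, the receptor for macrophage colony-stimulating factor, at 13.5 ± 0.819, 7.44 ± 0.604 and 17.0 ± 0.189 CPM (-0.85, adjusted p = 3.3e-07, and 0.34 at 24 h, adjusted p = 8.3e-04). The defining leukocyte gene PTPRC had at most 5 counts in a library, CD163 and MARCO at most 1 and AIF1 0. The hepatocyte genes ALB, APOB and TTR had at most 2 counts. The summed level of 4 endothelial and fibroblast genes was 16.7 to 18.3 CPM in untreated cells, 33.1 to 33.8 CPM at 8 h and 25.9 to 26.4 CPM at 24 h. Most of it came from the collagen gene COL1A1, at 13.1 to 14.1, 31.8 to 32.8 and 17.3 to 18.7 CPM. PECAM1, an endothelial adhesion gene and the other tested member, was lower at 8 h (-1.76, adjusted p = 8.9e-07) and higher at 24 h (1.18, adjusted p = 1.9e-06), while CDH5 and DCN had at most 3 and 4 counts.

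The genes whose pattern was most like that of ABCG1 were sought among 11919 other genes with a mean of at least 100 counts, by Pearson's r of log2 CPM over the 9 libraries. OPTN (0.998), SVIL (0.997), TMCO3 (0.996) and PDE7B (0.995) were among the closest, with log2 fold changes at 8 h between -0.83 and -0.36. They share with ABCG1 the same libraries and the 3 group levels, and the fall of each was smaller than that of ABCG1. NR1H3 ranked 78 in likeness to ABCG1 (0.982), MYLIP 341 (0.952), ABCA1 411 (0.944), LPCAT3 824 (0.902), SMPDL3A 1058 (0.873) and NR1H2 2114 (0.721). Untreated replicate 1 had the highest untreated level of ABCG1 and of each of these members but SMPDL3A. No ranking was made without that library, so the order is a description. For ABCA1 the closest genes were PPIC (0.995), ARFGAP3 (0.992), SH3TC2 (0.992), KLHL5 (0.991) and MYL12A (0.989). Among the members, NR1H3 was closest to ABCA1 as well, at rank 115 (0.959).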

How the data were processed

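The study sequenced stranded mRNA libraries of MDA-MB-231 cells. The authors checked reads with FastQC, aligned them to hg38 with HISAT2 and used featureCounts to count read pairs falling on the exons of each gene name, with strand taken into account. Deposited values are raw counts for 59453 gene names in 9 libraries, without normalization. Groups were taken from the sample titles. The members and lists were chosen with earlier results of these data known.

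In R 4.3.3, edgeR 4.0.16 kept 16556 genes (filterByExpr, minimum count 10), scaled library sizes by TMM (factors 0.977 to 1.04) and fitted all 9 libraries in a quasi-likelihood model. Benjamini-Hochberg adjustment ran over all genes tested, and genes were called at an adjusted p under 0.05. The standard error is the absolute log2 fold change over the square root of F. The biological coefficient of variation was 0.0481. Depth was 34633755 to 49342659 counts a library, and counting error is the least error of any value. CPM use TMM-scaled library sizes. Log2 CPM for likeness used a prior count of 2. Levels per kb use GENCODE v44 exons, and the promoter sequences are from RefSeq. The alternatives were other scalings (RLE, upper quartile, and mitochondrial genes left out), DESeq2 1.42.0, no filter, 10 counts in every library, only the 2 groups compared, a replicate block, a fold limit and leaving out each library. Leaving untreated replicate 1 out of the list counts was added after the data were seen. From each list the 2 called genes with the largest absolute log2 fold change at 8 h or 24 h and a mean of at least 100 counts were named, with genes at 3 counts or fewer; neighbours and marker genes were named after their values were seen. Some list genes and 1 gene by likeness are not reported here: they were left out of the counts and, where the rule picked them, not replaced. The procedure was tested on simulated data.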

Additional observations from a re-analysis of the deposited data

Results flagged for a closer look

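Levels of the following genes differed between 8 h and 24 h of TEPA, by the edgeR test of 24 h against 8 h. Since the same untreated libraries served both times, an effect of TEPA and one of time in culture cannot be told apart. The log2 difference is given for each gene. Among the members it was 0.84 for NR1H3, 0.63 for ABCA1, 0.69 for MYLIP, 0.46 for LPCAT3 and 0.50 for SMPDL3A (largest adjusted p 4.0e-04, for SMPDL3A). Of the pathway genes, INSIG1 (1.24), SREBF1 (1.15), SCD (1.12), STARD4 (0.97), PPARGC1A (0.70), CYP27A1 (0.69) and RXRA (0.43) were higher at 24 h than at 8 h. LPCAT1 (-1.06), MBOAT1 (-0.84) and LCAT (-0.74) were lower at 24 h than at 8 h. The macrophage genes CD14 (2.40) and CSF1R (1.19) were higher at 24 h than at 8 h. Adjusted p-values of the pathway and macrophage genes were 0.0016 or less. Since 54.8% of all genes tested were called in this comparison, a difference between the times was common.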

How the results depend on the processing

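Of 353 values of single members other than ABCG1 under the alternatives, 342 kept their side of the threshold, 10 lost a call and 1 gained one. The sign changed for 0 called values and 1 uncalled value (SMPDL3A at 24 h, 0.03 without untreated replicate 3). Members called lower at 8 h ranged from 4 to 6, and members called higher from 8 h to 24 h from 4 to 5. At 24 h, 0 members were called higher and 0 lower with a log2 fold limit of 0.5. Leaving out single libraries gave 1 to 2 members higher at 24 h, with 2 without TEPA 24 h replicate 1 (the added PLTP passed the filter through the 24 h libraries, so this call supports nothing), and 0 to 1 lower, with 0 without untreated replicate 1, TEPA 24 h replicate 1 or TEPA 24 h replicate 3. For ABCG1, leaving out 1 library gave -2.76 to -2.03 at 8 h and 0.10 to 0.81 at 24 h, and the values without untreated replicate 1 (-2.03 and 0.81) moved by more than the replicate SD of 0.41. NR1H2 at 8 h lost its call with upper-quartile factors (adjusted p = 0.073) and with only the 2 groups compared (0.063), and without untreated replicate 1, TEPA 8 h replicate 1 or 2, or TEPA 24 h replicate 1 (0.064 to 0.16). The causes were not tested. PLTP was not tested with 10 counts in every library, nor at 8 h with only the 2 groups compared.

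Deviations from the group means were nearly uncorrelated between same-numbered libraries (correlations -0.080 to 0.038). This does not show whether such libraries shared a culture or a run. With the replicate block, 5 members were lower at 8 h, since NR1H2 was lost (-0.12, adjusted p = 0.078), 5 rose from 8 h to 24 h, 1 was higher and 1 lower at 24 h, and no other member changed its call. Without untreated replicate 1, the named list genes kept their calls except CYP27A1 at 8 h.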
